A study of Homo sapiens with 4 samples.

Results

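Translation factors are the proteins that load ribosomes onto mRNA, move them along it and release them at the stop codon. The mRNA levels of 63 human genes for initiation factors (EIF genes), elongation factors (EEF genes), the release factors ETF1, GSPT1 and GSPT2 and the recycling factor ABCE1 were examined here. The genes were chosen by name among 35767 rows of a count table, leaving out pseudogenes, the eIF2 kinases and the eIF4E-binding proteins. Of the 63 genes, 60 passed the filter on low counts and were tested. EIF4E1B, GSPT2 and the Y-linked EIF1AY did not pass it.

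The libraries came from SAS cells, an established line from a human squamous cell carcinoma of the tongue. By title, 2 libraries came from cells with a control siRNA (siControl, genotype given as WT) and 2 from cells with an siRNA against NAT10 (siNAT10), the enzyme that places acetylcytidine on RNA. The labels give no time after transfection, siRNA sequence or dose. They call the replicates biological but name no separate cultures. Each p-value thus reflects only the spread of libraries within groups, possibly technical, as estimated with information shared across genes. The genotype label names a knockdown of NAT10 for siNAT10 replicate 1 and of NAT11 for replicate 2. NAT11 is another name of NAA40, which was at 22.1 and 18.8 CPM (counts per library scaled to a common size) in siControl and at 18.6 and 18.2 CPM in siNAT10 (log2 fold change -0.15 ± 0.10 (SE), edgeR adjusted p = 0.255).

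Total counts were between 30794757 and 36341785 per library. NAT10 mRNA, the target of the siRNA, was at 240.2 and 231 CPM in siControl replicates 1 and 2, and at 252 and 248 CPM in siNAT10 replicates 1 and 2. The label was thus not borne out by a lower NAT10 level (log2 fold change 0.09 ± 0.06, edgeR adjusted p = 0.293, and -0.024 under scaling by totals). All directions below compare the libraries by these labels, siNAT10 relative to siControl. Among 8 squamous epithelial markers in the table, only the desmosomal gene DSP had a mean above 10 CPM. It fell from 2302 and 2190 CPM in siControl to 1960 and 1835 CPM in siNAT10 (log2 fold change -0.24, edgeR adjusted p = 0.00453). EPCAM fell from 7.40 and 8.34 to 3.81 and 4.13 CPM (log2 fold change -0.99, edgeR adjusted p = 4.04e-05), while TP63 and CDH1 were not called. The level of KRT14 was 4.04 and 4.12 CPM in siControl and 1.96 and 1.86 CPM in siNAT10, and that of KRT5 was at most 0.202 CPM in any library, so that defining markers of squamous epithelium were low or near 0. The part of these marker differences in the results was not tested. In bulk RNA, fewer cells of a type and less RNA per cell cannot be told apart. The 4 leukocyte markers in the table summed to between 50.6 and 54.0 CPM, nearly all of it CD68, and PTPRC was at most 0.105 CPM. The 6 fibroblast markers summed to between 34.2 and 37.7 CPM in siControl and between 30.7 and 31.8 CPM in siNAT10, and the 4 endothelial markers to at most 3.76 CPM.

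Initiation begins when eIF2 brings the initiator tRNA to the small ribosomal subunit and eIF4F, built of the cap-binding eIF4E, the scaffold eIF4G and the helicase eIF4A, brings in the mRNA. eIF3 bridges both, eIF1, eIF1A and eIF5 control the choice of the start codon, and eIF5B joins the large subunit. In elongation eEF1A delivers aminoacyl-tRNA and eEF2 moves the ribosome by one codon. Growing tumour cells depend on these factors, and mTORC1 and the stress kinases of eIF2 control them.

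Most translation factor mRNAs were higher in the libraries labelled siNAT10, by less than 2-fold. Of 60 genes tested, 36 rose and 5 fell at an adjusted p under 0.05 (edgeR quasi-likelihood test), and 19 were not called. Over all 20098 genes tested, 19.7% were called higher, 20.7% lower and 40.4% in either direction. The median log2 fold change of the translation factors was 0.26, beside -0.01 over all genes tested. CPM of the groups did not overlap for 49 of the 60 genes, and for 69.5% of all genes tested. Changes were moderate, and 8 called members moved by more than 1.5-fold. The log2 fold change at percentiles 15 and 90 was -0.59 and 0.61 over all genes tested. Over the translation factors tested it was -0.11 and 0.61. Together the 63 genes took 1.95% and 1.96% of all counts in siControl and 2.15% and 2.14% in siNAT10. Under scaling by library totals without TMM factors, 26 rose and 10 fell, so that the share of higher calls was 72.2% instead of 87.8%. Under that scaling 41.2% of all genes were called, 13.4% higher and 27.9% lower, and the median over all genes was -0.12. Of the called translation factors, 10 lost the call under it. None changed direction, but this could not have come out otherwise, as the scaling lowered all values by about the same amount. The smallest called rise was 0.19 (GSPT1), beside a shift of the median over all genes from -0.01 to -0.12. The 5 lower calls were 2 without siNAT10 replicate 1 and 3 without siNAT10 replicate 2. Of the called genes, 26 share exon bases with another row and 15 do not, and because the strand setting is not given in the sources used here, reads of antisense partners cannot be told apart.

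**Figure D1:**
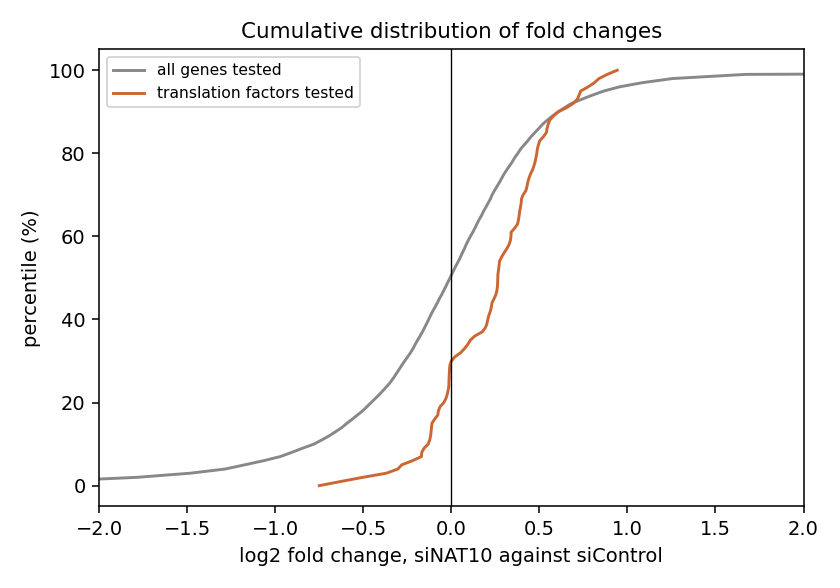
Cumulative distribution of the log2 fold change (x axis) as percentile (y axis) for the 60 translation factors tested and for all 20098 genes tested. The curve of the translation factors lies to the right of that of all genes at the median (0.26 against -0.01) and runs from -0.75 to 0.94, while the tails of all genes run past the axis.

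**Figure D2:**
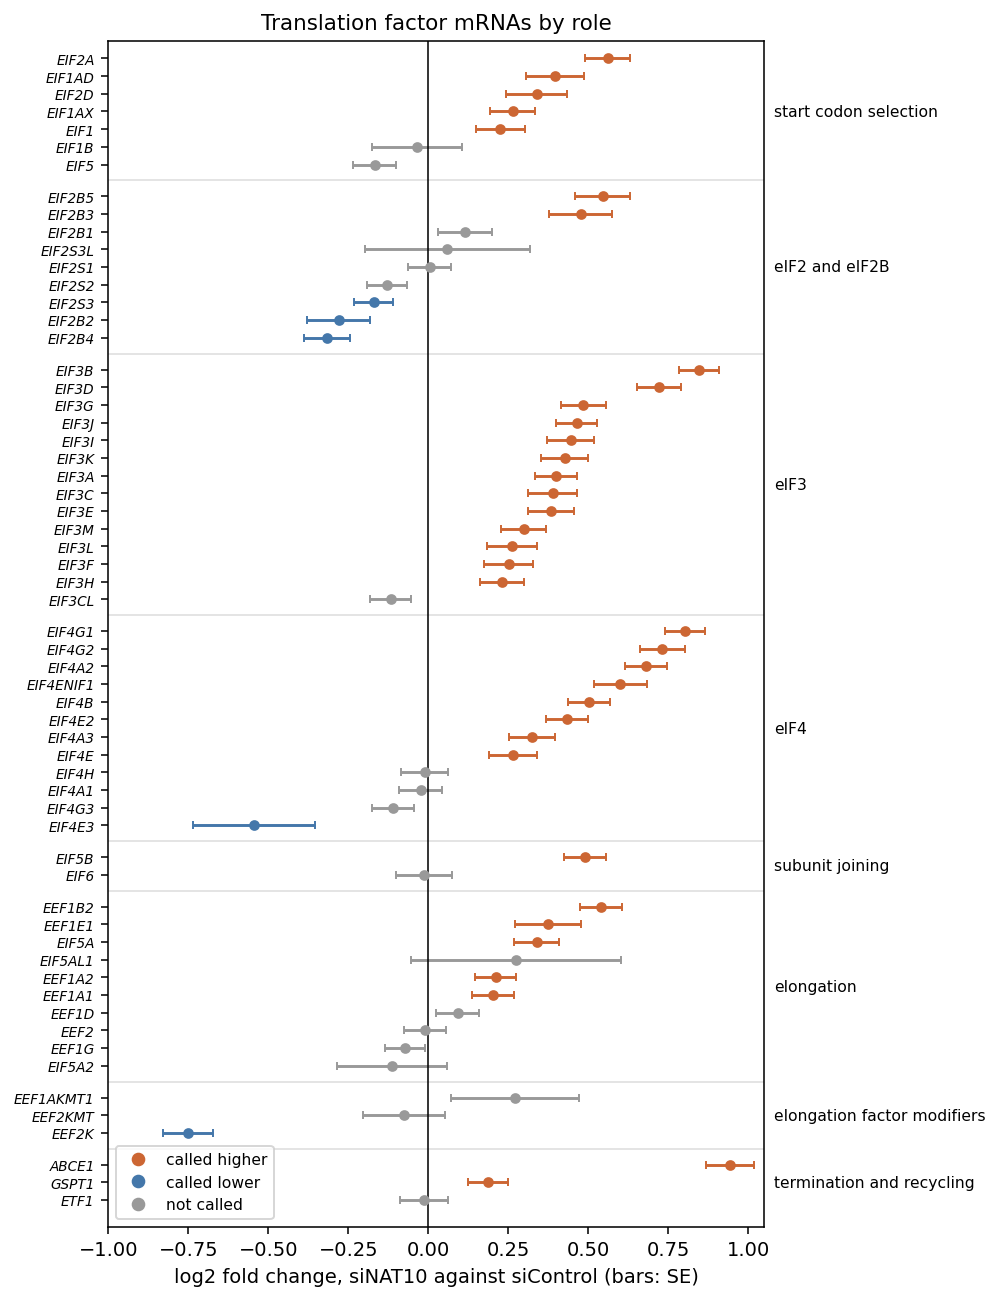
Log2 fold change of each tested translation factor (points, with bars for the SE), grouped by role, with genes called higher, called lower and not called at an adjusted p of 0.05. In eIF3, 13 of 14 genes lie to the right of 0 and are called higher, while the eIF2 and eIF2B genes lie on both sides. Of all genes tested, 19.7% were called higher.

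Many mRNAs of the translation machinery begin with a terminal oligopyrimidine tract, a C followed by a run of C and T bases, through which mTORC1 and LARP1 control their translation. The windows below run 30 bases around the annotated transcript start (RefSeq, GRCh38.p14, read along the gene's strand) and are examples picked after the values were seen. The first 8 carry such a tract and the last 4 do not, which is not the proportion among all members. Capitals mark a tract of a C and at least 4 further pyrimidines that begins within 3 bases before to 4 bases after the first transcribed base, and that of EEF1B2 runs on past its window.
EEF1B2 (chr2:206159880-206159909, plus strand): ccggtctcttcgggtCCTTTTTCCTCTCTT
EEF1A1 (chr6:73521018-73521047, minus strand): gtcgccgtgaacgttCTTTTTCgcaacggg
EEF2 (chr19:3985449-3985478, minus strand): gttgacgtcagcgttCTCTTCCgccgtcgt
EIF4B (chr12:53006441-53006470, plus strand): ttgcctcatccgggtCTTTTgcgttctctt
EIF4A2 (chr3:186783562-186783591, plus strand): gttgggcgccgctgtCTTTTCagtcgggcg
EIF3D (chr22:36529152-36529181, minus strand): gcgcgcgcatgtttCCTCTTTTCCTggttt
EIF2A (chr3:150546772-150546801, plus strand): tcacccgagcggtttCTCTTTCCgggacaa
EIF2S3 (chrX:24054941-24054970, plus strand): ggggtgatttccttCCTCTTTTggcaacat
EIF3B (chr7:2354812-2354841, plus strand): ccccgtcgcacgcacatggctgggctgtag
ABCE1 (chr4:145098296-145098325, plus strand): gtgcggcggctgggcaccgccattttggcc
EEF2K (chr16:22206263-22206292, plus strand): tgcccgcccgcttctgctcaacctagacca
EIF4A1 (chr17:7572810-7572839, plus strand): aggcgggcactccgccctagtttctaagga

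Of the 63 genes, 51 had an entry in the RefSeq start table, and 16 of these (31.4%) had at least 1 annotated start with such a tract. Of 14131 genes of the count table with an entry, 20.0% had one. Among the tested members, the 16 with a tract had a median log2 fold change of 0.45, with 14 called higher and 1, EIF2S3, lower. The 32 without one had a median of 0.21, with 16 called higher and 4 lower. Over all tested genes with an entry, 557 of 2302 with the tract were called higher and 517 lower, with a median of 0.00. Of 8734 without it, 1972 were called higher and 2068 lower, with a median of -0.02. Whether the tract bears on the fold changes was not tested. The letters CACGTG, the E-box bound by MYC (the same on both strands), occurred in the 300 bases around a start of 11 of the 51 members (21.6%) and of 11.4% of the 14131 genes. Members with and without it had medians of 0.26 and 0.30. A match describes these letters only.

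In eIF3, the largest initiation factor, 13 of 14 genes rose, beside 19.7% of all genes tested called higher. The groups did not overlap for any of the 14, nor for 69.5% of all genes tested. EIF3B, a scaffold of the complex that contacts eIF3a, eIF3g and eIF3i, was at 241 and 246 CPM in siControl and at 432 and 444 CPM in siNAT10. That was a 1.8-fold rise (log2 fold change 0.85 ± 0.06, edgeR adjusted p = 3.32e-09), and both siNAT10 libraries stood far above both siControl libraries. EIF3D, a subunit that can itself bind the cap of some mRNAs, was at 144 and 133 CPM in siControl and at 221 and 236 CPM in siNAT10 (log2 fold change 0.72 ± 0.07, edgeR adjusted p = 8.39e-08). These 2 stood apart from the other eIF3 genes, whose rises ran from 0.23 (EIF3H) to 0.48 (EIF3G) on the log2 scale.

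The remaining subunits of the b-g-i module and the loosely bound EIF3J moved alike. EIF3G was at 129.5 and 145 CPM in siControl and 188 and 195 CPM in siNAT10, while P2RY11, antisense to it over 113 exon bases, fell by 1.11 on the log2 scale. EIF3I rose by 0.44 ± 0.07 and EIF3J by 0.46 ± 0.06 on the log2 scale. The large core subunit gene EIF3A was at 2342 and 2392 CPM in siControl and at 3308 and 2934 CPM in siNAT10, or 0.40 ± 0.07 on the log2 scale (edgeR adjusted p = 8.09e-05). EIF3K and EIF3E rose by 0.43 and 0.38, and EIF3M by 0.30. The calls of EIF3L and EIF3H were lost without siNAT10 replicate 2 (edgeR adjusted p = 0.278 and 0.175), and that of EIF3F without siControl replicate 1 (0.0546) or siNAT10 replicate 1 (0.0894). With libraries scaled by their totals, these 3 were not called either, and 10 eIF3 genes were called higher. EIF3L shares 1767 exon bases with the row RP5-1014D13.2, which was at 0.25.

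EIF3C and EIF3CL are near-identical copies, both on chromosome 16, and reads cannot be assigned between them with certainty. EIF3C was at 434 and 357 CPM in siControl and 506 and 530 CPM in siNAT10 (log2 fold change 0.39 ± 0.08), while EIF3CL was at 436 and 462 against 415 and 413 CPM (-0.12 ± 0.06, edgeR adjusted p = 0.147). Added up, the pair had 870.1 and 820 CPM in siControl and 921 and 942 CPM in siNAT10, so the sum was higher in both libraries labelled siNAT10. The lower row, EIF3CL, was called lower without siControl replicate 1 (edgeR adjusted p = 0.0357) and under scaling by totals (0.00651).

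Levels of the eIF3 mRNAs differed widely, although the proteins meet in one complex. Per length, as CPM divided by the kilobases of annotated exon (RPKM), the siControl mean ran from 4.42 for EIF3F to 333 for EIF3A, a 75.4-fold range. Exon length here counts every annotated exon of a gene, used or not. In siControl the libraries of each gene did not overlap with those of the next gene in that order, for which no test was made. The closest neighbours included EIF3G and EIF3D, at 37.2 and 41.5 against 35.4 and 32.7 RPKM in siControl replicates 1 and 2. In the libraries labelled siNAT10 these neighbours stood at 54.0 and 56.0 against 54.2 and 57.9 RPKM and overlapped.

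**Figure D3:**
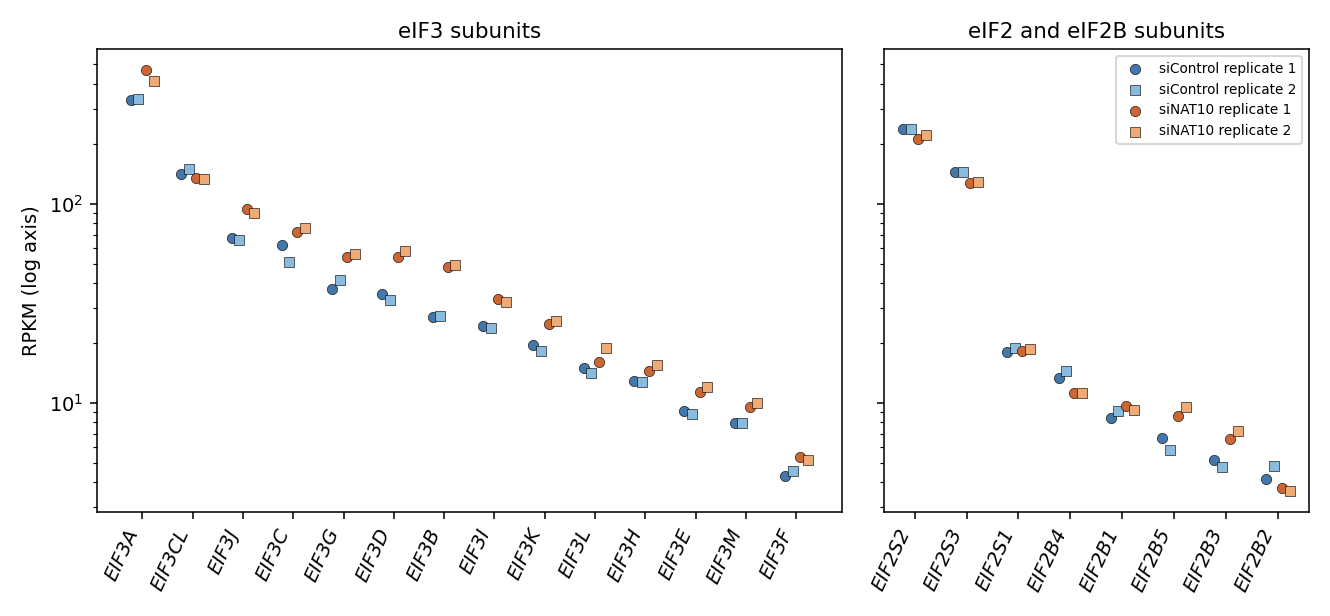
Level per length (RPKM, log axis) of eIF3 subunit genes (left) and of eIF2 and eIF2B subunit genes (right, without the retrogene EIF2S3L) in each of the 4 libraries. Most eIF3 genes sit higher in both siNAT10 libraries, whereas EIF2S2, EIF2S3, EIF2B4 and EIF2B2 sit lower.

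The eIF2 and eIF2B genes did not move together. eIF2 carries the initiator tRNA, and eIF2B, a complex of subunits alpha to epsilon, reloads eIF2 with GTP, the step that phosphorylated eIF2 alpha blocks. The eIF2B catalytic subunits are gamma and epsilon, encoded by EIF2B3 and EIF2B5, and both rose. EIF2B5 was at 37.9 and 33.2 CPM in siControl and 49.3 and 54.6 CPM in siNAT10 (log2 fold change 0.54 ± 0.09, edgeR adjusted p = 4.05e-05). EIF2B3 was at 17.7 and 16.2 CPM in siControl and 22.5 and 24.7 CPM in siNAT10 (0.48 ± 0.10, edgeR adjusted p = 6.83e-04).

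The regulatory subunits beta and delta, encoded by EIF2B2 and EIF2B4, fell instead. EIF2B4 was at 71.5 and 77.6 CPM in siControl and 60.1 and 59.6 CPM in siNAT10 (log2 fold change -0.32 ± 0.07, edgeR adjusted p = 0.00149). AC074117.10, an antisense row that shares 199 of its exon bases, fell too (-0.64). EIF2B2 was at 22.5 and 26.1 against 20.4 and 19.7 CPM (-0.28 ± 0.10, edgeR adjusted p = 0.0285). Its call was lost without siControl replicate 2 (adjusted p = 0.266), without siNAT10 replicate 1 (0.0641) or 2 (0.13), and in DESeq2 (0.123). EIF2B1, the alpha subunit gene, was at 0.12 ± 0.08 on the log2 scale (edgeR adjusted p = 0.296).

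Of the 3 eIF2 genes, only that of the GTP-binding gamma subunit was called. EIF2S3 was at 499.7 and 499.6 CPM in siControl and 442 and 446 CPM in siNAT10, 1.13-fold lower (log2 fold change -0.17 ± 0.06, edgeR adjusted p = 0.0334). It lost the call without siNAT10 replicate 1 (adjusted p = 0.214) or 2 (0.175), and with the replicate number as a block (0.0533). EIF2S2, the beta subunit gene, was at 626 and 626 CPM in siControl and 558 and 588 CPM in siNAT10 (-0.13 ± 0.06, edgeR adjusted p = 0.113), and was called lower when libraries were scaled by totals (-0.24, adjusted p = 0.00483). EIF2S1, whose alpha subunit is the target of the stress kinases, was at 102 and 106 against 103 and 106 CPM, with overlapping groups. The retrogene EIF2S3L was at no more than 2.66 CPM.

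In the group of start codon selection, 5 of 7 tested genes rose and none fell, beside 19.7% called higher and 40.4% in either direction over all genes. Besides the genes of eIF1, eIF1A and eIF5, the group holds EIF2A, EIF2D and, by its name only, EIF1AD. EIF2A, which can deliver initiator tRNA apart from eIF2, was at 86.1 and 81.8 CPM in siControl and 118 and 130.0 CPM in siNAT10 (log2 fold change 0.56 ± 0.07, edgeR adjusted p = 3.57e-06). EIF1AD, named for its similarity to eIF1A, rose by 0.40 ± 0.09, as did BANF1, antisense to it over 98 exon bases (0.62 on the log2 scale). EIF2D, which can load tRNA at the start codon without eIF2, rose by 0.34 ± 0.10. EIF1AX (0.26 ± 0.07) and EIF1 (0.22 ± 0.08, edgeR adjusted p = 0.0238), which keep the scanning ribosome open, rose less. Without siNAT10 replicate 2 the calls of EIF1AX (adjusted p = 0.0775) and EIF1 (0.312) were lost, and without siNAT10 replicate 1 that of EIF2D (0.101). EIF1 was also not called without siControl replicate 2 (0.0812) and in DESeq2 (0.0611), and none of these 3 was called with libraries scaled by totals.

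EIF5, the GTPase activator of eIF2, went the other way without passing the test. It was at 136 and 129.7 CPM in siControl and 116 and 120.4 CPM in siNAT10 (log2 fold change -0.17 ± 0.07, edgeR adjusted p = 0.0508). It was called lower in 5 alternatives, without siControl replicate 2 (adjusted p = 0.0144), with libraries scaled by totals (0.00254), with a minimum of 50 counts (0.0411), with rows free of exon overlap (0.0388) and with halved counts (0.0457). In the others its adjusted p ran from 0.0516 to 0.307. EIF1B, a paralog of EIF1, was at no more than 7.71 CPM, with overlapping groups.

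In the eIF4 group 8 of 12 tested genes rose and 1 fell, beside 19.7% called higher and 20.7% lower over all genes tested. EIF4G1, the main scaffold of eIF4F, was at 787 and 755 CPM in siControl and 1327 and 1360.3 CPM in siNAT10. That was a 1.74-fold rise (log2 fold change 0.80 ± 0.06, edgeR adjusted p = 5.88e-09), with no overlap between the groups. EIF4G2 (DAP5), a relative that lacks the eIF4E-binding part and serves cap-independent initiation, was at 257 and 237 CPM in siControl and 390.1 and 429 CPM in siNAT10 (0.73 ± 0.07, edgeR adjusted p = 8.07e-08). EIF4G3, the other full-length scaffold, was at 379 and 351 against 345 and 332 CPM (-0.11 ± 0.07, edgeR adjusted p = 0.192). It was called lower without siControl replicate 2 (adjusted p = 0.0356) and with libraries scaled by totals (0.0123).

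The helicase paralogs EIF4A1 and EIF4A2 differed in the same way. EIF4A2 was at 194 and 199 CPM in siControl and 324 and 306 CPM in siNAT10 (log2 fold change 0.68 ± 0.06, edgeR adjusted p = 8.54e-08). Small nucleolar RNA rows lie within its span, and its antisense row RP11-573D15.9 rose by 0.59. EIF4A1 was at 225 and 247 against 228 and 237 CPM (-0.02 ± 0.07), so the groups overlapped. It shares 1586 exon bases with the read-through row SENP3-EIF4A1, which was at -0.01, and 2186 with RP11-186B7.4, which was at 0.01. EIF4A3, the helicase of the exon junction complex, rose by 0.32 ± 0.07. The helicase cofactor EIF4B was at 930.1 and 864 CPM in siControl and 1232 and 1308 CPM in siNAT10 (0.50 ± 0.06, edgeR adjusted p = 4.46e-06), and its antisense row RP11-983P16.4, with which it shares 733 exon bases, rose by 0.64. The other cofactor, EIF4H, was at 947 and 1119 against 1024 and 1025 CPM, with overlapping groups.

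Cap-binding proteins were split. EIF4E was at 47.4 and 51.4 CPM in siControl and 57.4 and 61.3 CPM in siNAT10 (log2 fold change 0.26 ± 0.08, edgeR adjusted p = 0.00872), and lost the call without siNAT10 replicate 2 (0.109) and under scaling by totals (0.109). EIF4E2, a cap-binding protein that acts in repression, was at 179 and 189 against 248 and 249.7 CPM (0.43 ± 0.06, edgeR adjusted p = 2.35e-05). EIF4ENIF1, the transporter that carries eIF4E into the nucleus, was at 26.7 and 26.5 against 41.3 and 39.3 CPM (0.60 ± 0.08, edgeR adjusted p = 9.17e-06). EIF4E3 fell from 5.25 and 4.15 CPM to 2.95 and 3.52 CPM (-0.54 ± 0.19, edgeR adjusted p = 0.0285). The call of this low-level gene was lost without siControl replicate 1 (adjusted p = 0.247), without siNAT10 replicate 1 (0.18) and in DESeq2 (0.179). EIF4E1B had 2 counts in siControl replicate 1 and none in the other libraries, where a count of 0 allows up to 0.0807 to 0.102 CPM (3 independent counts, counting error only).

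**Figure D4:**
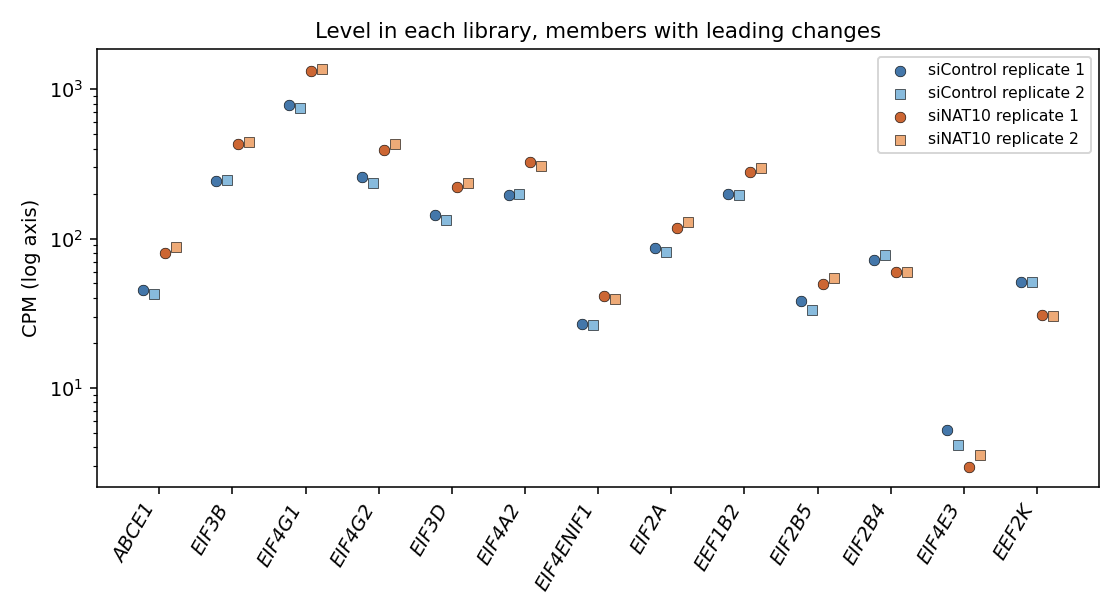
Level in CPM (log axis) of 13 translation factor genes in each of the 4 libraries, chosen among those with leading changes. From ABCE1 to EIF2B5 both siNAT10 libraries lie above both siControl libraries, and for EIF2B4, EIF4E3 and EEF2K both lie below. As the genes were picked by their changes, this separation is no test. CPM of the groups did not overlap for 69.5% of all genes tested.

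Shares within paralog pairs were compared as a description, since 2 libraries against 2 cannot give an exact permutation p below 0.333. EIF4A1 made up 57.2% and 58.9% of the summed RPKM of EIF4A1 and EIF4A2 in siControl, and 44.8% and 47.2% in siNAT10. By this measure the order of the helicases was turned, with EIF4A1 higher in siControl and EIF4A2 in siNAT10. The order is uncertain, as EIF4A1 shares 41.1% of its exon bases with RP11-186B7.4 on the same strand. That row had means of 279 CPM in siControl and 282 CPM in siNAT10. EIF4G1 made up 70.7% and 71.4% of EIF4G1 and EIF4G3 in siControl and 81.7% and 82.7% in siNAT10. In contrast, its share with EIF4G2 was 76.2% and 77.0% against 78.1% and 76.9%, and overlapped. Of 9 pairs compared, 6 had shares that did not overlap between the groups, beside 69.5% of all genes tested whose CPM did not overlap. EIF3C and EIF3CL, between which reads cannot be assigned with certainty, are among the 6.

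**Figure D5:**
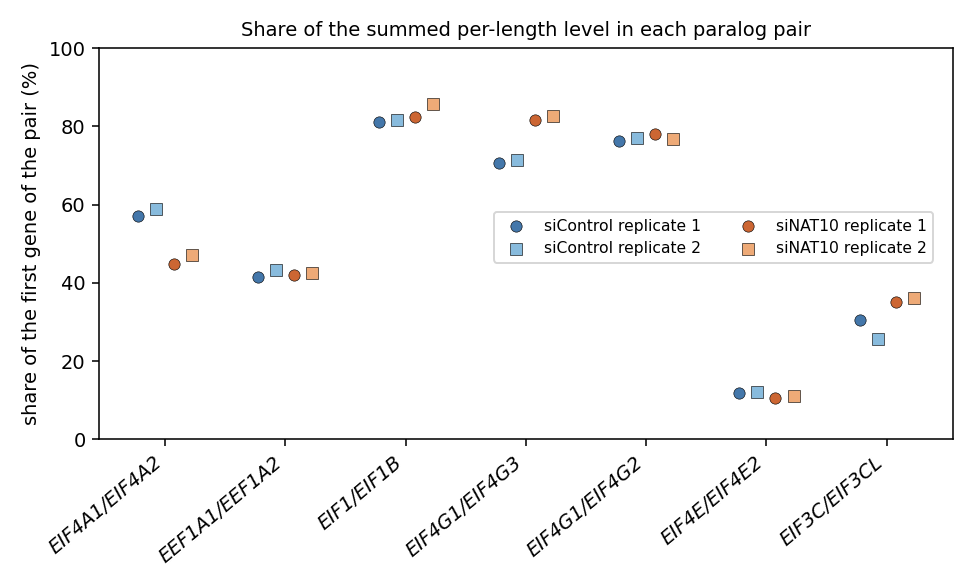
Share of the first gene in the summed per-length level (RPKM) of 7 paralog pairs, in percent, in each of the 4 libraries. The shares of EIF4A1 (57.2% and 58.9% against 44.8% and 47.2%) and of EIF4G1 beside EIF4G3 (70.7% and 71.4% against 81.7% and 82.7%) separate the groups, while that of EEF1A1 beside EEF1A2 does not.

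For joining of the ribosomal subunits, EIF5B was at 1262 and 1132 CPM in siControl and 1693 and 1668 CPM in siNAT10 (log2 fold change 0.49 ± 0.07, edgeR adjusted p = 7.17e-06). EIF6, which keeps the large subunit apart from the small one, was at 26.5 and 26.9 against 26.0 and 26.9 CPM. The GTPase mRNA was thus higher in both siNAT10 libraries, while the values of EIF6 overlapped.

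In the elongation group, 5 of 10 genes rose and none fell, beside 19.7% called higher and 40.4% called in either direction over all genes tested. The group includes EEF1E1 by its name only. EEF1B2, which encodes the exchange factor that reloads eEF1A with GTP, was at 198 and 197 CPM in siControl and 278 and 295 CPM in siNAT10 (log2 fold change 0.54 ± 0.06, edgeR adjusted p = 1.78e-06). The other subunits of that exchange complex were not called. EEF1D was at 333 and 372 against 379.7 and 372 CPM (0.09 ± 0.07, edgeR adjusted p = 0.299), and was called higher without siControl replicate 2 (0.0256). EEF1G was at 1073 and 1128 against 1043 and 1050.0 CPM (-0.07 ± 0.06, edgeR adjusted p = 0.381), and was called lower under scaling by totals (0.023). All but a few of the exon bases of EEF1G, 2714 in all, are shared with the read-through row RP11-864I4.1, also at -0.07.

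The genes of the tRNA carrier eEF1A rose slightly. EEF1A1 was at 1068 and 1121 CPM in siControl and 1211 and 1307 CPM in siNAT10 (log2 fold change 0.20 ± 0.06, edgeR adjusted p = 0.0169). EEF1A2, a paralog known from muscle and neurons and from tumours, was at 507 and 495 against 563 and 597 CPM (0.21 ± 0.06, edgeR adjusted p = 0.012). Neither was called without siNAT10 replicate 2 (adjusted p = 0.244 and 0.181) or with libraries scaled by totals (0.276 and 0.233). Per length, EEF1A2 stood above EEF1A1 in every library, at 253 and 247 RPKM against 180 and 189 RPKM in siControl. By CPM the order was the reverse. The lengths used, 5948 bases for EEF1A1 and 2006 for EEF1A2, count every annotated exon, used or not. Which mRNA was more abundant is thus uncertain. EEF1A1 has many processed pseudogenes, and reads shared with them cannot be placed with certainty.

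EEF2, the translocase, had the highest level per length of all translation factors, at 743 and 834 RPKM in siControl and 775 and 791 RPKM in siNAT10. Its groups overlapped (log2 fold change -0.01 ± 0.07, edgeR adjusted p = 0.923, 95% interval of the difference from -0.15 to 0.13). EIF5A, which relieves stalled ribosomes and carries the amino acid hypusine, was at 125 and 136 CPM in siControl and 158 and 172 CPM in siNAT10 (0.34 ± 0.07, edgeR adjusted p = 6.53e-04). GPS2, antisense to it over 241 exon bases, fell by 0.63 on the log2 scale. EEF1E1, a scaffold of the tRNA synthetase complex despite its name, rose by 0.37 ± 0.10 and lost the call without siNAT10 replicate 2 (adjusted p = 0.0924). The row EEF1E1-BLOC1S5, which shares 393 exon bases with EEF1E1 on the same strand, did not rise with it (-0.10, edgeR adjusted p = 0.362). EIF5A2 and the retrogene EIF5AL1 were at no more than 4.52 and 1.41 CPM.

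The kinase that switches off eEF2 showed the largest fall among the 60 translation factors tested. EEF2K was at 51.2 and 51.1 CPM in siControl and 30.7 and 30.1 CPM in siNAT10, 1.68-fold lower (log2 fold change -0.75 ± 0.08, edgeR adjusted p = 2.72e-07). The kinase mRNA was thus lower in both siNAT10 libraries, beside overlapping levels of its substrate EEF2. EEF2KMT, which methylates eEF2, was at 9.94 and 12.1 against 9.82 and 11.1 CPM, and EEF1AKMT1, which methylates eEF1A, at 2.97 and 2.77 against 3.78 and 3.11 CPM, neither of them called (edgeR adjusted p = 0.67 and 0.302).

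In termination and recycling, ABCE1 showed the largest rise among the 60 tested. ABCE1 is the ATPase that splits the ribosome into subunits after termination. It was at 45.0 and 42.3 CPM in siControl and 80.1 and 87.6 CPM in siNAT10, 1.92-fold higher (log2 fold change 0.94 ± 0.07, edgeR adjusted p = 7.8e-09). The rows antisense to it, ANAPC10 and OTUD4, were at 0.16 and 0.00 and were not called. ETF1, the release factor that reads the stop codon, was at 128 and 149.8 against 143 and 132 CPM, with overlapping groups. Its partner GTPase GSPT1 was at 533 and 502 against 598 and 581 CPM (0.19 ± 0.06, edgeR adjusted p = 0.0241). That call was lost without siControl replicate 2 (adjusted p = 0.0692), without siNAT10 replicate 1 (0.174) or 2 (0.0945), and under scaling by totals (0.383). The retrogene GSPT2 had 4 to 6 counts per library.

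Of the other translation genes, 5 lists were set beside the translation factors. The background over all genes tested was 40.4% called, 19.7% higher and 20.7% lower. Of 20 regulators of initiation, 6 rose and 6 fell. The eIF2 kinase gene EIF2AK4 (GCN2), which senses uncharged tRNA, was at 74.8 and 75.9 CPM in siControl and 127 and 133 CPM in siNAT10 (log2 fold change 0.79 ± 0.07, edgeR adjusted p = 2.1e-08). EIF2AK1 (HRI) rose by 0.38 and EIF2AK3 (PERK) fell by 0.34 on the log2 scale. EIF4EBP1, the mTORC1-controlled inhibitor of eIF4E, was at 153 and 176 CPM in siControl and 93.7 and 86.3 CPM in siNAT10 (-0.87 ± 0.08, edgeR adjusted p = 2.71e-08). Its relative EIF4EBP2 rose from 12.9 and 13.2 to 16.6 and 16.5 CPM (0.35 ± 0.10). RPTOR, the substrate-binding subunit of mTORC1, fell by 0.60 on the log2 scale. EIF2AK1, EIF2AK3 and EIF4EBP2, like PAIP1, PAIP2, PAIP2B and DHPS below, were picked after their values were seen.

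Of 13 accessory factors of initiation, 6 rose and 3 fell, beside 19.7% called higher and 20.7% lower over all genes tested. The poly(A)-binding protein genes PABPC1 and PABPC4 were at 1022 and 945 against 1531 and 1587 CPM and at 238 and 227 against 382 and 374 CPM (log2 fold changes 0.66 ± 0.06 and 0.70 ± 0.06, edgeR adjusted p = 1.1e-07 and 4.87e-08). The genes of their binding partners PAIP1, PAIP2 and PAIP2B were called lower, at -0.19, -0.23 and -0.76, PAIP2 with overlapping CPM. BZW2, which competes with eIF5 for eIF2, rose by 0.74.

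Among 12 factors of ribosome rescue, selenocysteine insertion and related steps, 6 rose and 3 fell. Over all genes tested, 19.7% were called higher and 20.7% lower. GTPBP2, which acts on stalled ribosomes, fell from 96.3 and 98.2 to 42.9 and 44.9 CPM (log2 fold change -1.15 ± 0.07, edgeR adjusted p = 2.53e-10), and HBS1L, which pairs with PELO in rescue, rose from 27.1 and 27.5 to 50.9 and 50.3 CPM (0.89 ± 0.08, edgeR adjusted p = 3.29e-08). The calls of this list dropped from 9 to 5 without siControl replicate 1 or siNAT10 replicate 2. Of 12 mitochondrial translation factors, 4 rose and 1 fell, a count of 5 that was 3 without siNAT10 replicate 2. With all 4 libraries, the share called in this list was near the 40.4% of all genes tested. GFM2, which recycles mitochondrial ribosomes, and MTIF2, the mitochondrial initiation factor, rose by 0.84 ± 0.07 and 0.78 ± 0.08 (edgeR adjusted p = 2.72e-08 and 1.82e-07). Of 12 genes for enzymes that modify eEF1A, eEF2 or eIF5A, 3 rose and none fell, a smaller share than the 40.4% called over all genes. Among the 3 were the diphthamide synthesis genes DPH2 (0.81 ± 0.14) and DPH6 (0.80 ± 0.18). DHPS, the first enzyme of hypusine synthesis, was not called (-0.08 ± 0.09).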

How the data were processed

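The authors deposited raw counts per gene for 4 libraries, with the exon length of each row. Per the labels' protocols, total RNA (TRIzol) went into a digital mRNA library kit. Per the submitters' processing notes, fastp 0.23.4, STAR 2.5.3a, featureCounts and GRCh38 were used. For the annotation release, the strand setting and the handling of duplicates, the entry is "not given in the sources used here". Between 72.0% and 73.5% of counts from 1 to 50 were even, as counting both mates of a pair would give. EEF1G and RP11-864I4.1, with nearly the same exons, had nearly the same level, as counting shared reads in both rows would give.

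Counts were tested in R 4.3.3 with edgeR 4.0.16 (quasi-likelihood, robust, filterByExpr, TMM, group only, 2 residual degrees of freedom). The fit draws each gene's spread towards that of all genes, so tests and intervals use more than these 2 degrees of freedom. Tests were two-sided, and p-values were adjusted by Benjamini-Hochberg across the 20098 genes tested, with calls at 0.05. CPM use TMM-scaled library totals, and RPKM divide these by the deposited length. On simulated counts over 19717 genes, 14%, 76%, 76% and 96% of genes changed 1.25-, 1.5-, 2- and 4-fold were recovered, and 5.76% of calls were false. The simulation gave all genes a common dispersion (spread beyond counting error) and changed 50 genes per fold. In the data the spread differs by gene and 40.4% of genes were called, so these shares need not hold there. Replicates differed by more than the sampling noise of independent counts (chi-square per degree of freedom 8.68 for siControl and 5.05 for siNAT10). If both mates of a pair were counted, sampling noise alone would give larger values than for independent counts. Each library's floor of 3 counts, which covers counting error only, was 0.0787 to 0.102 CPM. It too takes counts as independent, and would be too low if both mates were counted. Alternatives were RLE factors, library totals, DESeq2 1.42.0, other filters, row sets and halved counts, each replicate left out, and a replicate block. Named were NAT10, up to 5 called genes per role and up to 3 per list with the smallest adjusted p, the paralog pairs, and any member by its values. Members, lists and start features were chosen with earlier results of these data known. The Y-linked member is counted but not described.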

Additional observations from a re-analysis of the deposited data

How the results depend on the processing

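Of the 41 called translation factors, 27 kept direction and call in every alternative that tested them (25 higher, 2 lower), and 14 lost the call in at least 1. Scaling by totals gave 10 lower calls and a median of 0.152, against 5 and 0.264, and DESeq2 gave 3 lower, with 28.3% of all genes called against 40.4%. With rows free of exon overlap, where fewer genes were tested, 16 were called (14 higher, 2 lower) with a median of 0.243, and the lists of regulators, accessory, rescue and mitochondrial factors had 7, 4, 2 and 1 calls, beside 39.8% of all genes. Leaving out 1 library gave 30 to 41 calls, 27 to 35 higher and 2 to 6 lower, medians from 0.247 to 0.296, 5 to 8 rescue calls and 3 to 7 mitochondrial calls, while the share of all genes called was also lower, at 28.9% to 37.1%. The lone library of a reduced group was assumed to vary like the other group. With the replicate block, 40 members were called (36 higher, 4 lower). Same-numbered libraries did not deviate together (correlation -0.026), so the numbers were not taken as pairs. Values near 0 that were not called changed sign. By totals, NAT10 was at -0.024, EEF1D at -0.019, EIF2S1 at -0.108 and EIF2S3L at -0.052, and without a count filter EIF2S1 was at -0.0032. Leaving out 1 library gave -0.092 to 0.076 for EEF2, -0.212 to 0.068 for EEF2KMT, -0.13 to 0.053 for EIF1B, -0.031 to 0.037 for EIF2S1, -0.346 to 0.359 for EIF2S3L, -0.091 to 0.046 for EIF4A1, -0.129 to 0.114 for EIF4H, -0.037 to 0.016 for EIF6 and -0.123 to 0.103 for ETF1. The cause was not tested. In the simulated counts, with 2 libraries per group and a common spread for all genes, changes of 1.25-fold were rarely recovered. This need not hold for the measured genes, among which GSPT1 was called at 1.14-fold.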
